A study of Rattus norvegicus with 48 samples.

Results

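Early liver nodules of rats were split by the transcript of keratin 19 (Krt19) into 10 Krt19-high and 10 Krt19-low nodules, which are 20 of the 48 arrays of the series. The classes were chosen by the measured log2 Krt19 intensity of each nodule, high above 11 and low otherwise. Each array measured messenger RNA in tissue cut by laser from stained frozen sections of the liver of male F-344 rats. The nodules were taken 10 weeks after initiation with diethylnitrosamine (DENA), a carcinogen given by injection, which was followed by a diet with 2-acetylaminofluorene (2-AAF) before and after a partial hepatectomy. Both classes of nodules came from rats on this same protocol, as did 4 adenomas and 5 early hepatocellular carcinomas (eHCC) taken at 10 months and 9 advanced ones (aHCC) taken at 14 months. Control liver of the same strain made up the remaining 10 arrays. The labels attach the same protocol text to every array, controls included, and do not say whether the control livers came from treated rats or at what age, so lesion, treatment and age cannot be told apart in any comparison with control. The labels do not tie the cut regions to animals, so regions may share a rat and p-values over regions may be too small. In such bulk tissue, fewer cells of a type and less RNA per cell cannot be told apart.

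The titles of the arrays also give a Krt19 status, and it went against the transcript in 10 of the 20 nodules. The nodules carry sample numbers 1 to 10 and 15 to 24, called here the first and the second run of numbers, since the labels name no hybridization batch. In the first run the 5 nodules titled krt-19+ were the Krt19-high ones and the 5 titled krt-19- the Krt19-low ones. In the second run the 5 nodules titled krt-19- (15 to 19) were Krt19-high and the 5 titled krt-19+ (20 to 24) were Krt19-low. How the titled status was assigned, and whether the titles or the columns of the second run are exchanged, is not given in the sources used here. Within each run the cut thus separates the same 5 and 5 arrays as the titles do, and the transcript sets which side is called high. Because the classes were cut on a transcript of the same arrays, genes that vary along with Krt19 had to differ between them. Counts are given for both runs taken separately as well as for the fit over both. Nodule 8, a Krt19-low nodule, stood apart from the other nodules for several lesion markers and is described with them.

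Keratin 19 is an intermediate filament protein of bile duct cells and of liver progenitor cells, and mature hepatocytes normally lack it. Liver tumours that carry it are known for a poorer course in patients. Nodules of this rat model are also known for a strong detoxification program under the transcription factor NRF2, which the adaptor protein KEAP1 marks for degradation until electrophiles or oxidants release it. NRF2 then pairs with small MAF proteins at antioxidant response elements and switches on genes of glutathione synthesis, conjugation and NADPH supply.

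Krt19 itself covered a wide range within the nodules. In the first run the Krt19-high nodules 1 to 5 had log2 intensities of 13.15, 12.03, 12.01, 11.67 and 11.64, and the Krt19-low nodules 6 to 10 had 7.69, 10.50, 8.51, 10.41 and 10.11. In the second run the Krt19-high nodules 15 to 19 had 12.96, 12.15, 11.49, 12.96 and 12.56, and the Krt19-low nodules 20 to 24 had 8.42, 9.36, 7.70, 10.60 and 9.19. Control livers lay between 7.38 and 8.76, so the lowest of the Krt19-low nodules were at the level of control liver and the highest were well above it. The value just above the cut was that of nodule 17 (11.49) and the value just below it that of nodule 23 (10.60). These values chose the classes, and no test is given for them.

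The light neurofilament gene Nefl, a cytoskeletal gene of neurons, and the protease gene Ctse, which encodes cathepsin E of the gastric mucosa, separated the same nodules. Both were named beside Krt19 as markers of the split, so their nodule values are a description as well. Nefl had a lowest, median and highest log2 intensity of 10.97, 12.38 and 13.75 in the Krt19-high nodules, and of 6.90, 7.64 and 8.93 in the Krt19-low nodules. It was detected in all 10 Krt19-high nodules, in 6 of 10 Krt19-low nodules and in 0 of 10 controls, where it lay at 6.86 to 7.10. Nefl thus left a gap of more than 2 log2 units between the classes, and the difference was 4.27 in the first run and 5.07 in the second. Ctse had 10.42, 11.48 and 11.91 in the Krt19-high nodules, and 7.20, 8.25 and 9.75 in the Krt19-low nodules. Its controls lay at 7.42 to 7.91, close to the lower Krt19-low nodules.

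Later lesions carried the same 3 transcripts, on arrays that took no part in the split. Krt19 averaged 7.83 ± 0.39 in control liver (SD, n = 10), 12.10 ± 2.16 in adenomas (n = 4), 12.35 ± 1.71 in eHCC (n = 5) and 11.64 ± 1.69 in aHCC (n = 9). In aHCC it was 14.0-fold above control (limma, log2 difference 3.80 ± 0.51 SE, adjusted p = 9.72e-06), with all 9 aHCC above all 10 controls. Ctse was 4.22-fold higher in aHCC than in control (2.08 ± 0.505 SE, adjusted p = 0.00334), although 1 aHCC at 14.04 lay far above the other 8, which spanned 8.31 to 10.51. Nefl reached 10.24 to 13.52 in the 5 eHCC, close to the range of the Krt19-high nodules, but only 7.17 to 10.02 in aHCC. Because no control had detectable Nefl, its rise in aHCC has a bound, at least 1.96-fold (means of 8.41 in aHCC and 6.99 in control, adjusted p = 0.000128). Of the 9 aHCC, 8 had detectable Nefl.

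**Figure D1:**
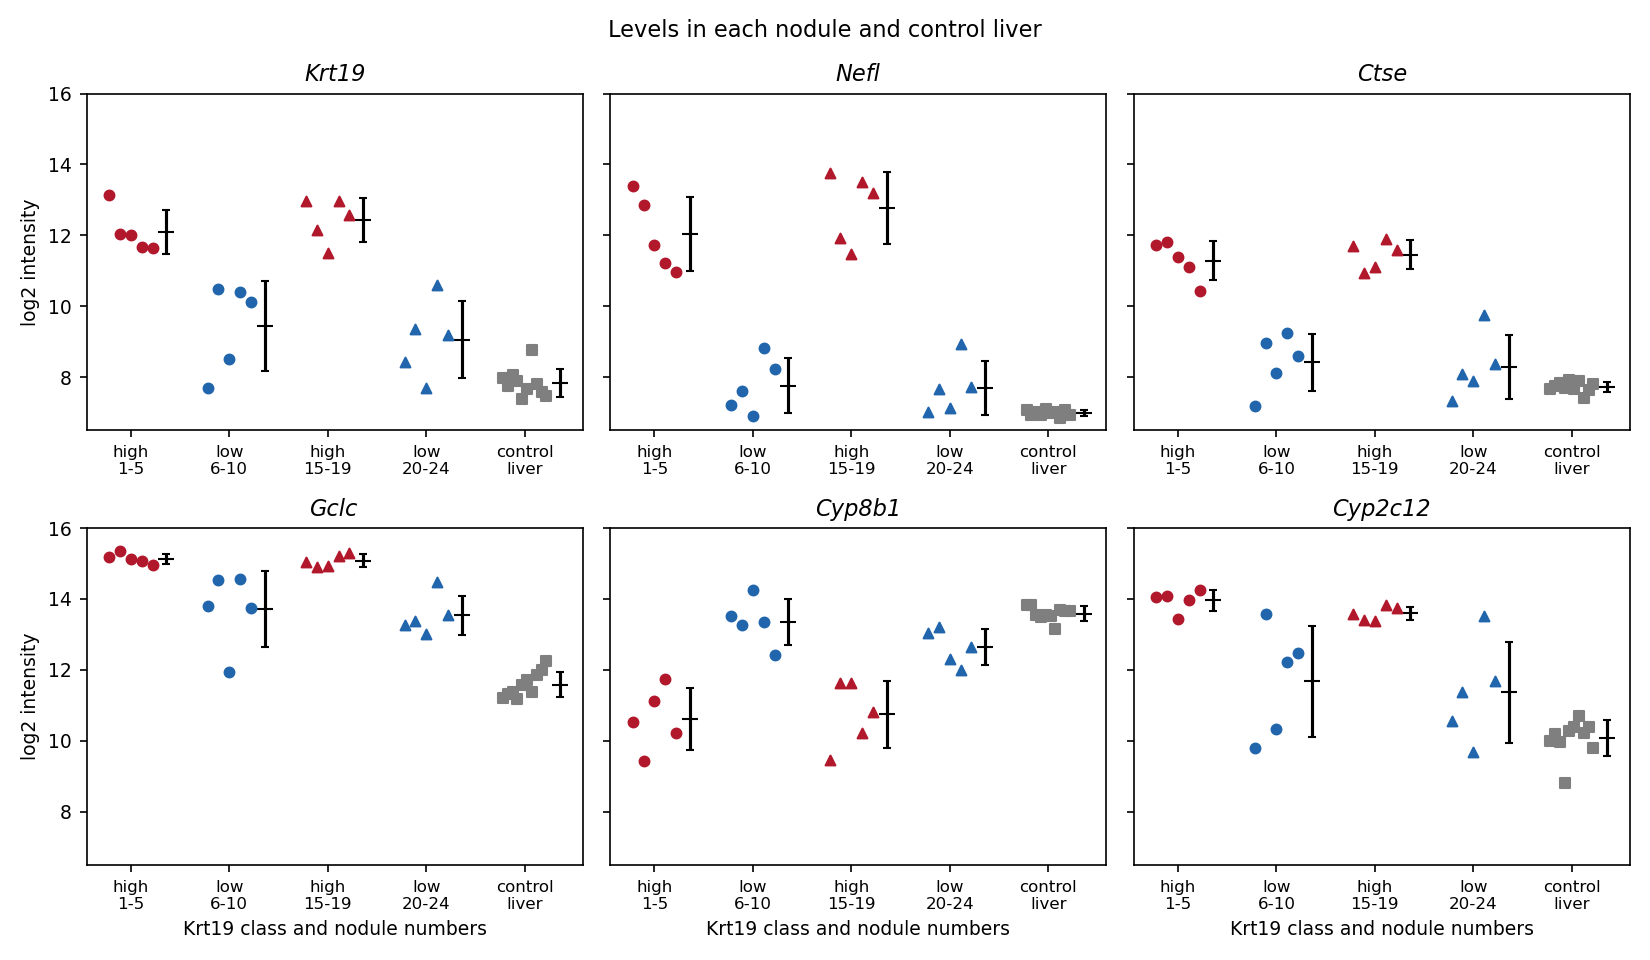
Log2 intensity (vertical axis) of Krt19, Nefl, Ctse, Gclc, Cyp8b1 and Cyp2c12 in each Krt19-high nodule (red), Krt19-low nodule (blue) and control liver (grey), with circles for nodules 1 to 10 and triangles for nodules 15 to 24. Black marks give the mean and SD of each set; the 10 Krt19-high nodules do not overlap the 10 Krt19-low nodules for any gene shown except Cyp2c12, for which a Krt19-low nodule reached 13.57 and the lowest Krt19-high nodule had 13.39.

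The split extended far beyond the 3 markers. With the run of numbers as a block, limma called 2122 of 13479 features higher in Krt19-high nodules (15.7%) and 1872 lower (13.9%) at an adjusted p under 0.05, or 29.6% in either direction. Taken alone, the first run gave 728 higher (5.4%) and 616 lower (4.57%), 9.97% in all, and the second 1758 higher (13%) and 1684 lower (12.5%), 25.5% in all. Both runs called 613 features higher (4.55%) and 523 lower (3.88%), together 8.43%, and 0 features called in the first run were called in the opposite direction in the second. Of the features called higher in the first run, 84.2% were also called higher in the second, and 34.9% the other way round. For lower features the shares were 84.9% and 31.1%. Across all features the differences of the runs had a Pearson r of 0.874 (Spearman rho 0.729), a description over genes that are not independent of each other. The size of the difference was itself compared between the runs, and limma called 0 features, against 667 at an unadjusted p under 0.05 (4.95%). The 10 Krt19-high nodules did not overlap the 10 Krt19-low nodules for 329 features (2.44%), among them 165 of the 613 and 151 of the 523. The counts of higher features and of features without overlap include Krt19, Nefl and Ctse themselves. Among the genes named below as called with run as block, Abcc3, Ahsp, Akr1d1, Akr7a3, Aqp1, Ccnb2, Cd14, Cd48, Cdh17, Dpp3, Ereg, Fcgr2b, Fn1, Ghr, Hamp, Hbb, Hbb-b1, Hnf4a, Idh2, Lcn2, Marco, Mgp, Nefm, Nfe2l2, Nkg7, Nsdhl, Pfkp, Rhbg, Sds, Sesn1, Sox4, Tm7sf2 and Vil1 did not pass in the first run alone. Ahsp, Fcgr2b, Fn1, Ghr, Idh2, Rhbg and Vcam1 did not pass in the second. Without nodule 5 the features called in both runs numbered 397 higher and 361 lower, and the first run alone gave 444 and 392. Without nodule 1 the first run gave 463 and 409.

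**Figure D2:**
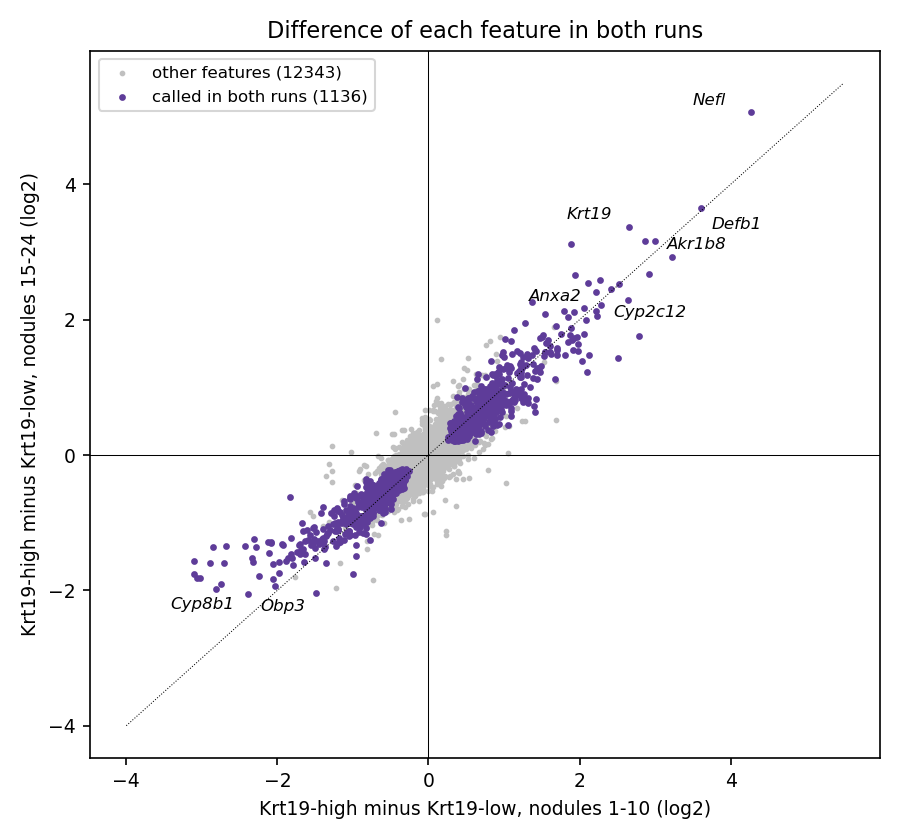
Krt19-high minus Krt19-low difference of each feature on the log2 scale in nodules 1 to 10 (horizontal axis, 5 against 5) and in nodules 15 to 24 (vertical axis, 5 against 5); purple points are the 1136 features called in both runs and the dotted line marks equal differences. All purple points lie at the lower left or the upper right, with Nefl at 4.27 and 5.07.

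Genes picked in one run could be read in the nodules of the other. The 727 features other than Krt19 that were called higher in nodules 1 to 10 had a mean log2 level of 10.02 to 10.36 in the 5 Krt19-high nodules of the second run, of 9.34 to 9.89 in its 5 Krt19-low nodules, and of 9.04 to 9.20 in controls. The 616 features called lower had 9.62 to 10.16 in those Krt19-high nodules, 10.30 to 10.67 in the Krt19-low nodules and 10.71 to 10.90 in controls. In both directions the classes of the second run did not overlap, and its Krt19-low nodules lay on the side of control. Those nodules were classed by their own Krt19 level, so genes that vary along with Krt19 had to differ there as well. The 727 features also include Nefl and Ctse, which were named as markers of the split. The values are therefore a description and not an independent test. The number of detected probes moved with the class as well. It averaged 10228 ± 501.4 in Krt19-high and 9433 ± 638.2 in Krt19-low nodules (SD, n = 10 each), a difference of 794.6 (two-sided exact permutation test within runs, p = 3.15e-05, where the smallest possible is 3.1e-05). The part of this difference in the results that follow was not tested.

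Among the gene lists, the NRF2 targets held the largest number of higher genes. Of 40 measured targets, 32 were called higher and 1 lower in Krt19-high nodules, with a median difference of 0.79, against 15.7% and 13.9% of all features and an overall median of -0.003. In both runs separately, 20 were called higher and 1 lower. The first run alone called 21 higher and 1 lower, and the second 31 higher and 4 lower. Akr1b8, an aldo-keto reductase that removes reactive aldehydes, had a lowest, median and highest log2 intensity of 13.20, 13.64 and 14.26 in the Krt19-high nodules, against 7.64, 10.80 and 12.57 in the Krt19-low nodules and 7.27, 7.51 and 7.86 in controls. Its classes did not overlap, and the lowest Krt19-low nodule, nodule 8, lay within the controls (difference 3.08 ± 0.46 SE, 8.47-fold, adjusted p = 3.21e-05 by limma). Gpx2, a glutathione peroxidase, had 11.96, 12.32 and 12.93 in Krt19-high, 8.56, 10.32 and 11.74 in Krt19-low nodules and 7.34, 7.48 and 8.19 in controls. It too kept the classes apart, at a 4.12-fold difference (2.04 ± 0.27 SE, adjusted p = 9.49e-06).

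Enzymes of glutathione synthesis and reduction followed. Gclc, which encodes the catalytic part of glutamate-cysteine ligase, had 14.90, 15.10 and 15.34 in Krt19-high nodules, 11.93, 13.65 and 14.55 in Krt19-low nodules and 11.18, 11.49 and 12.25 in controls. All Krt19-high nodules were above all Krt19-low nodules (2.80-fold, 1.48 ± 0.24 SE, adjusted p = 6.24e-05), although several stood close to the highest intensity on any array, 15.54. Its modifier subunit Gclm was 3.12-fold higher (adjusted p = 2.32e-05), the quinone reductase Nqo1 3.13-fold (1.64 ± 0.21 SE, adjusted p = 6.35e-06), the thioredoxin reductase Txnrd1 2.64-fold and the glutathione reductase Gsr 2.82-fold. Taldo1, the transaldolase of the pentose phosphate pathway, rose 2.48-fold with no overlap (adjusted p = 5.95e-07), but in the wider list for NADPH supply only Taldo1 and Idh2, an isocitrate dehydrogenase (1.35-fold, adjusted p = 0.0074), were called of 9. With run as block, the only target called lower was Ugt2b1, a glucuronosyltransferase. It was 2.93-fold lower in Krt19-high nodules (-1.55 ± 0.24 SE, limma adjusted p = 4.04e-05), with 10.73, 11.88 and 12.93, against 12.52, 13.55 and 14.19 in Krt19-low nodules.

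Gstp1, the placental form of glutathione transferase and a classical marker of such nodules, did not pass between the classes (1.10 ± 0.46 SE, adjusted p = 0.080). Krt19-high nodules had 14.79, 15.45 and 15.54, against 9.84, 14.67 and 15.48 in Krt19-low nodules and 8.14, 8.98 and 9.90 in controls. Nearly all nodules were thus near the top of the array scale, and 1 of them, nodule 8, had the level of a control liver. Without nodule 8 the difference was 0.60 ± 0.13 SE and passed (adjusted p = 0.00184), and 33 of the 40 NRF2 targets were called higher, with a median of 0.67. The efflux pump gene Abcc3 had 8.42 in nodule 8 and 11.25 to 12.08 in the other Krt19-low nodules; its difference was 1.06 ± 0.31 SE with nodule 8 (adjusted p = 0.0121) and 0.73 ± 0.11 SE without it. The aldehyde reductase Akr7a3 differed by 0.88 ± 0.30 SE with it (adjusted p = 0.032) and by 0.56 ± 0.11 SE without it.

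The regulators of the pathway moved less than its targets. Nfe2l2, which encodes NRF2, was 1.38-fold higher (0.47 ± 0.12 SE, adjusted p = 0.0036), with 11.51, 11.67 and 12.44 in Krt19-high, 10.98, 11.18 and 12.03 in Krt19-low nodules and 11.11, 11.44 and 11.54 in controls. It passed in the second run (0.57, adjusted p = 0.000807) and not in the first (0.36, adjusted p = 0.316), while the difference between the runs was itself not called. Keap1 differed by 0.045 ± 0.072 SE (adjusted p = 0.694), with 9.88 to 10.44 in Krt19-high and 9.75 to 10.53 in Krt19-low nodules. The small MAF partner Mafg was 1.42-fold higher (0.51 ± 0.08 SE, adjusted p = 6.22e-05), in both runs, and Dpp3, a peptidase that binds KEAP1, was 1.13-fold lower (-0.18 ± 0.05 SE, adjusted p = 0.00774). Of 11 regulators measured, 3 were called higher and 1 lower, near the 29.6% of all features called in either direction, and in both runs 1 was called higher and 0 lower.

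Promoter sequence was read for the NRF2 targets as the 250 bases before each gene's start in RefSeq (rat assembly GRCr8). The core letters of the antioxidant response element, TGACNNNGC on either strand, which share their first letters with the AP-1 motif TGACTCA, stood in 7 of the 32 tested targets with a sequence (21.9%), in 12.4% of the promoters of all tested genes and in 10.2% of all promoters of that length. Of the 15 targets called higher in both runs that had a sequence, 3 held it (20%, against 13.9% of all genes called higher in both runs and 12% of those called lower), namely Gpx2, Gclm and Ugdh, the last an enzyme that makes UDP-glucuronic acid. The windows of Gpx2 (chr6:101230034-101230283, minus strand) and Gclm (chr2:213031885-213032134, plus strand) are shown because both genes kept the classes apart; they read 5′ to 3′ along the gene, and capitals mark the motif, here on the opposite strand.
Gpx2: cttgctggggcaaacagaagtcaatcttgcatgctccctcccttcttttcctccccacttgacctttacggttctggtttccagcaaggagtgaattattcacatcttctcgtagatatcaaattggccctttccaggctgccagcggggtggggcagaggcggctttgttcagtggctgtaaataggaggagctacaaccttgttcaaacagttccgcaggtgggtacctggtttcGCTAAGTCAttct
Gclm: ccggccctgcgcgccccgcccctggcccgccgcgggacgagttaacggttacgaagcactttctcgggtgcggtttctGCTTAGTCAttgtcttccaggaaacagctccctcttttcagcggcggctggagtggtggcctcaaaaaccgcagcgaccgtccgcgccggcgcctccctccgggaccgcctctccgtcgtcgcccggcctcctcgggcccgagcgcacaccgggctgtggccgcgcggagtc
The match begins at position -13 relative to the start in Gpx2 and at -172 in Gclm. A match of letters is a description of the sequence and not a measured binding site.

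**Figure D3:**
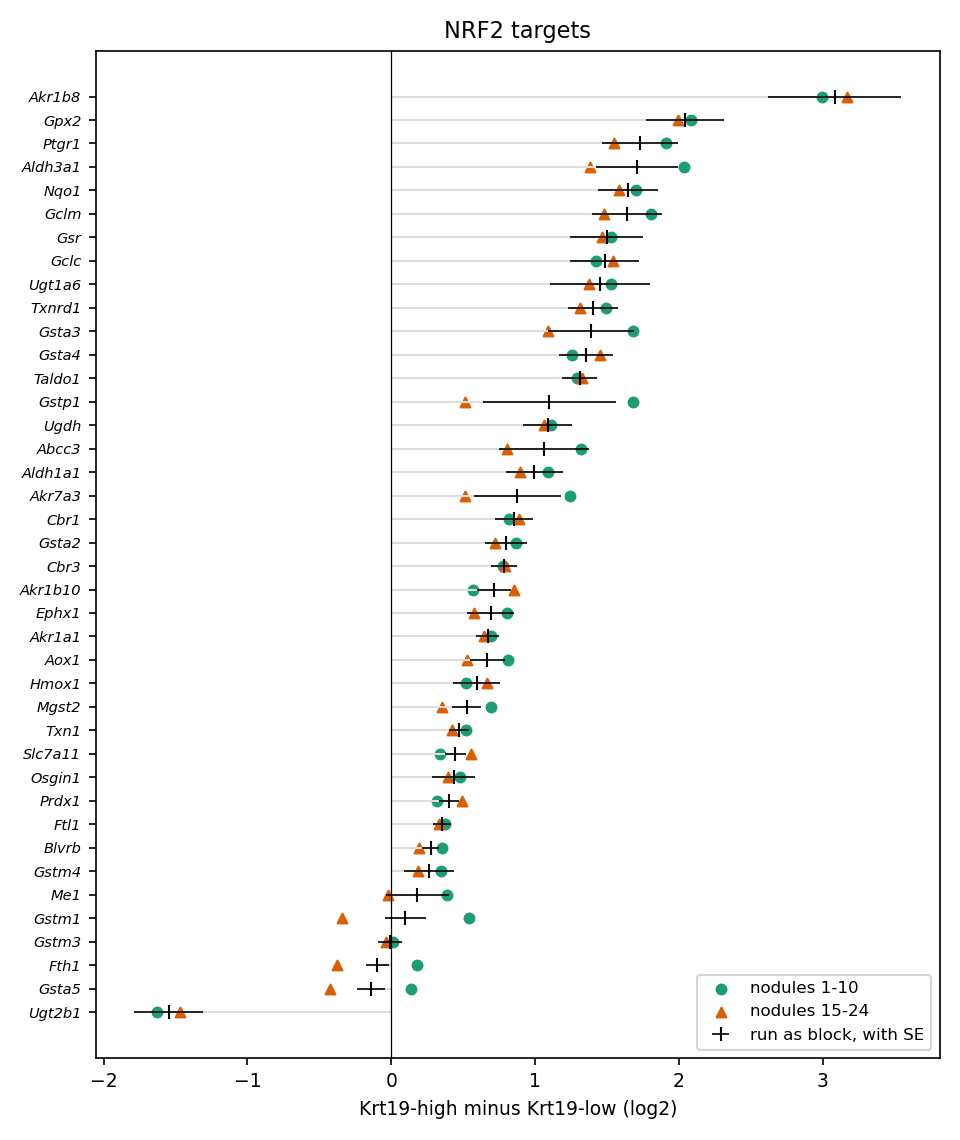
Krt19-high minus Krt19-low difference on the log2 scale (horizontal axis) for the 40 measured NRF2 targets (rows, ordered by size), with green circles for nodules 1 to 10, orange triangles for nodules 15 to 24 and black marks for the value with run as block and its SE. Akr1b8 leads at 3.08, and Ugt2b1, at -1.55, is the target called lower with run as block.

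Known markers of foci and nodules had the largest median difference of the lists described. Of 17 markers, which share 8 members with the NRF2 targets, 15 were called higher and 1 lower, with a median of 1.45, and in both runs 9 higher and 1 lower. Among all features 15.7% were called higher and 13.9% lower, and 4.55% and 3.88% in both runs. Defb1, a beta-defensin, was 12.4-fold higher (3.63 ± 0.59 SE, adjusted p = 7.08e-05), with 12.61, 13.37 and 13.90 in Krt19-high against 7.22, 10.12 and 12.62 in Krt19-low nodules. After neqc, a correction that subtracts background, the Defb1 difference was 4.32. The Krt19-high nodules held a narrow range, while the Krt19-low ones ran from undetected (2 of 10, and 10 of 10 controls) to the lower edge of the Krt19-high class, which nodule 23 just crossed. Abcb1b, the multidrug efflux pump, had 12.19, 12.45 and 12.99 in Krt19-high, 7.15, 9.57 and 11.80 in Krt19-low nodules and 7.59, 8.11 and 9.78 in controls. Its classes did not overlap, at 8.46-fold (3.08 ± 0.45 SE, adjusted p = 2.16e-05), and the lowest Krt19-low nodules were within or below the control range.

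Further genes with large differences had other roles. Pla2g7, a phospholipase that cleaves platelet-activating factor, had a log2 difference of 2.80 ± 0.29 SE (limma adjusted p = 9.49e-07), or 4.35 after neqc, and was detected in 10 of 10 Krt19-high against 4 of 10 Krt19-low nodules. Tceal9 rose 5.41-fold and the carbonic anhydrase Car2 3.51-fold. The aldo-keto reductase Akr1c19, outside the list, rose 5.02-fold. Agtpbp1, also outside it and an enzyme that trims glutamate residues from tubulin tails, rose with no overlap (2.31 ± 0.23 SE, adjusted p = 7.98e-07, and 2.99 after neqc). Afp, the fetal albumin-like protein, was the marker that went the other way. It was 1.67-fold lower in Krt19-high nodules (-0.74 ± 0.12 SE, adjusted p = 5.99e-05), with 9.44, 9.88 and 10.30, against 10.04, 10.65 and 11.04 in Krt19-low nodules and 10.69, 10.87 and 11.13 in controls. Among 7 ABC pumps measured, Abcb1b and Abcc3 were called higher and Abcc6, a pump of mature hepatocytes, lower. These counts stand against 15.7% higher and 13.9% lower of all features, and the median of the list was 0.01. In both runs 1 pump was called higher and 1 lower. Abcc6 was 2.38-fold lower with no overlap (-1.25 ± 0.15 SE, limma adjusted p = 4.03e-06).

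Epithelial and progenitor genes moved in part. Of 13 biliary and progenitor markers other than Krt19, 7 were called higher and 0 lower, with a median of 0.33, and in both runs 5 were called higher. All features gave 15.7% higher and 13.9% lower, and 4.55% higher in both runs. Cd24, a surface glycoprotein of progenitor cells, had 11.33, 11.67 and 12.05 in Krt19-high, 7.95, 9.56 and 10.54 in Krt19-low nodules and 7.69, 8.16 and 8.51 in controls. No nodule crossed between the classes (4.93-fold, 2.30 ± 0.23 SE, adjusted p = 6.81e-07). The adhesion molecule Epcam was 2.68-fold higher (adjusted p = 9.14e-07), and the simple-epithelium keratin Krt8 1.72-fold. The transcription factor Sox4 had a log2 difference of 1.25, or 2.05 after neqc. Other genes typical of bile duct cells did not pass. Krt7, a keratin partner of Krt19 in ducts, was detected in 2 of 10 Krt19-high and 1 of 10 Krt19-low nodules, and Cldn4, Muc1 and Spp1 differed by 0.01, 0.01 and -0.07. Spp1, osteopontin, was detected in 7 of 10 Krt19-high and 4 of 10 Krt19-low nodules. The summed intensity of the 13 markers ran from 32753 to 50779 in Krt19-high nodules, from 15825 to 29840 in Krt19-low nodules and from 10497 to 14934 in controls. A sum of unlogged intensities is set mainly by the brightest markers, and dim duct genes such as Krt7 and Cldn4 add little to it.

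S100 and annexin genes, which encode calcium-binding proteins of the cell cortex and membrane, gave 13 higher and 0 lower of 20, with a median of 0.41, and 9 higher and 0 lower in both runs. Shares of all features, for this list and the lists below, were 15.7% and 13.9%, and 4.55% and 3.88% in both runs. S100a11 had 11.36, 12.69 and 13.55 in Krt19-high, 9.06, 9.96 and 11.65 in Krt19-low nodules and 8.07, 8.99 and 9.81 in controls (5.67-fold, 2.50 ± 0.30 SE, adjusted p = 3.9e-06). Anxa2 had 10.78, 11.49 and 11.88 in Krt19-high, 8.56, 9.08 and 10.59 in Krt19-low nodules and 7.90, 8.19 and 8.46 in controls. The classes overlapped for S100a11 and not for Anxa2 (4.51-fold, 2.17 ± 0.23 SE, adjusted p = 9.43e-07). Among genes of stomach and gut, Ctse aside, the actin-bundling Vil1 (log2 difference 0.98, and 2.08 after neqc) and the trefoil factor Tff3 (log2 difference 0.73, and 1.73 after neqc) were called higher at low levels, and the liver-intestine cadherin Cdh17 was 2.31-fold lower (-1.21 ± 0.33 SE, adjusted p = 0.00791). With Ctse counted, 4 of 10 such genes were called higher and 1 lower, and in both runs 2 higher and 0 lower. Ctse itself is 1 of the 2. Of 7 neuronal genes 4 were called higher, Nefl included, and in both runs Nefl alone. Nefl and Ctse were named as markers of the split, so their own calls add no support to these lists. Nefm, the medium neurofilament, differed by 0.64 ± 0.15 SE (limma adjusted p = 0.00279), and by 1.32 after neqc.

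Functions of mature hepatocytes were lower in Krt19-high nodules across many lists. Complement and coagulation factors gave 22 of 25 lower and 0 higher (median -0.56), genes of amino acid breakdown or urea formation 29 of 34 lower and 0 higher (median -0.71), and bile acid synthesis and transport 12 of 14 lower and 1 higher (median -1.05). Cytochrome P450 genes gave 29 of 42 lower and 2 higher (median -0.65), fatty acid oxidation 21 of 30 lower and 2 higher (median -0.39), and hepatocyte transcription factors 11 of 21 lower and 0 higher (median -0.30). In both runs separately the P450 list had 23 lower and 1 higher, complement 17 lower, amino acids 13, fatty acid oxidation 13 with 1 higher, bile acids 10 and the factors 5. These shares stand against 13.9% of all features called lower. Albumin (Alb) differed by -0.10 ± 0.06 SE (adjusted p = 0.186), with 14.59 to 15.45 in Krt19-high and 14.94 to 15.43 in Krt19-low nodules, both near the top of the array scale.

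**Figure D4:**
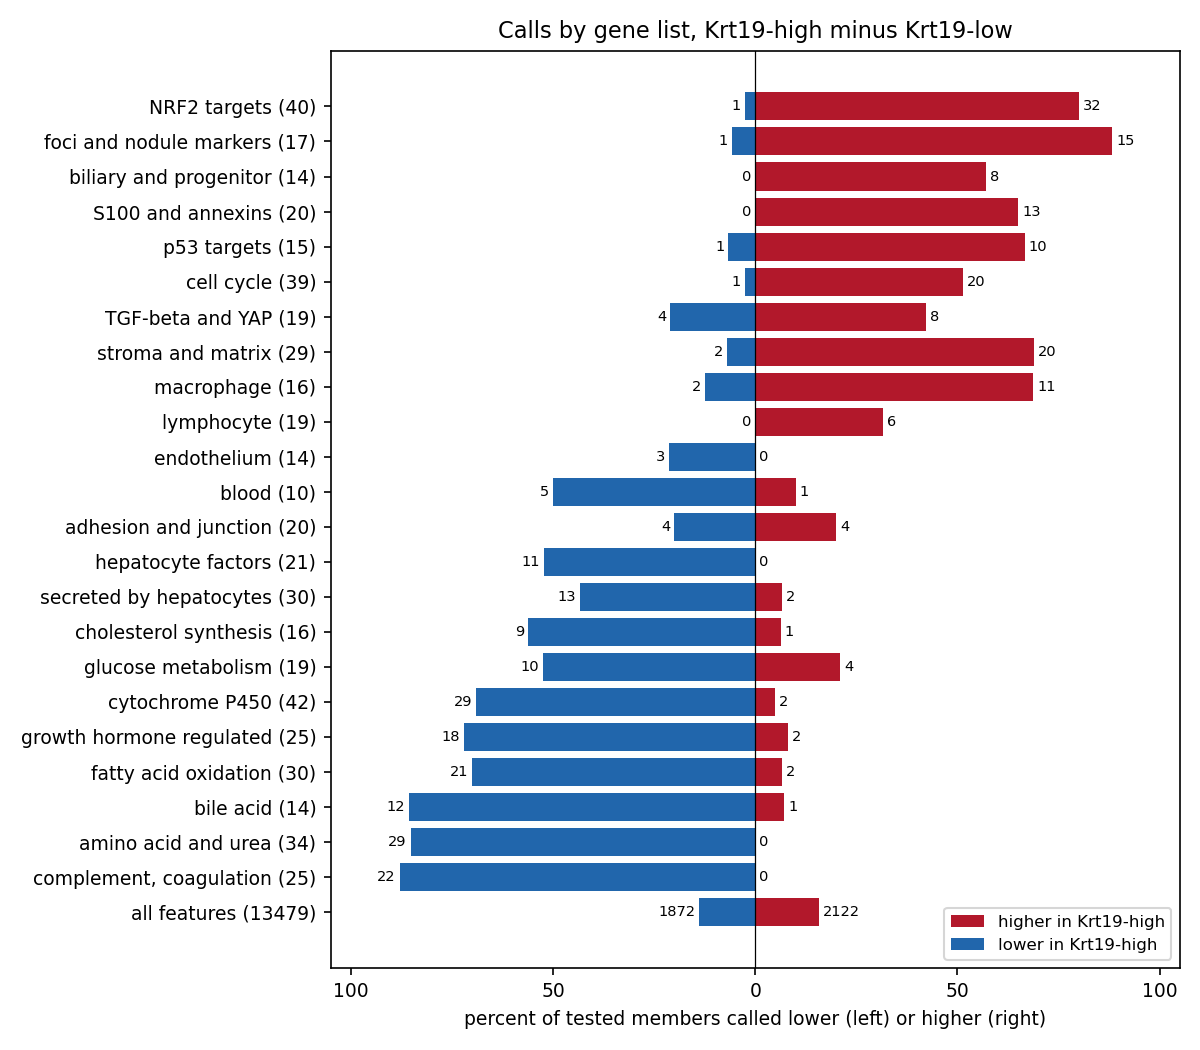
Percent of the measured members of each gene list (rows, number measured in brackets) that were called higher (red, right) or lower (blue, left) in Krt19-high than in Krt19-low nodules by limma with run as block; numbers at the bars are counts, and the biliary bar includes Krt19 itself. NRF2 targets have 32 of 40 to the right, complement and coagulation 22 of 25 to the left, and all features 15.7% and 13.9%.

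Bile acid genes showed this with some of the largest drops. Cyp8b1, the hydroxylase that makes cholic acid, had 9.43, 10.67 and 11.74 in Krt19-high, 12.00, 13.12 and 14.24 in Krt19-low nodules and 13.14, 13.60 and 13.84 in controls. No nodule crossed over (5.01-fold lower, -2.33 ± 0.31 SE, adjusted p = 9.65e-06). The bile acid ligase Slc27a5 was 3.41-fold lower, also with no overlap, the first enzyme of synthesis, Cyp7a1, 2.63-fold, and the uptake carrier Slc10a1 2.02-fold. Akr1d1, a steroid reductase of the same pathway, was called 1.18-fold higher (adjusted p = 0.0403), a call that was lost in 16 alternatives.

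Most genes of the growth hormone list were lower, and Cyp2c12 was among the few that were higher. In rat liver, growth hormone pulses keep a set of P450 and urinary protein genes at male levels, and Cyp2c12 is typical of females. Of 25 genes listed as regulated by growth hormone, 18 were called lower and 2 higher (median -0.83), and in both runs 11 lower and 2 higher. Over all features 13.9% were called lower and 15.7% higher, and 3.88% and 4.55% in both runs. Obp3, a urinary protein of male rats, had 7.37, 8.91 and 10.83 in Krt19-high, 8.99, 11.58 and 12.59 in Krt19-low nodules and 12.24, 13.20 and 14.58 in controls (4.67-fold lower, -2.22 ± 0.38 SE, adjusted p = 0.000126). Both classes lay below control except nodule 8, and they overlapped. Cyp4a2, a fatty acid hydroxylase, was 4.75-fold lower with no overlap (-2.25 ± 0.32 SE, adjusted p = 1.56e-05), with 8.06, 9.35 and 10.47 in Krt19-high and 10.48, 11.61 and 13.07 in Krt19-low nodules. Cyp2c12 had 13.39, 13.78 and 14.24 in Krt19-high, 9.69, 11.53 and 13.57 in Krt19-low nodules and 8.80, 10.21 and 10.70 in controls (4.77-fold higher, 2.25 ± 0.42 SE, adjusted p = 0.00026). Igfbp3, a carrier of insulin-like growth factors, was 3.67-fold higher with no overlap (1.88 ± 0.16 SE, adjusted p = 4.6e-07). The growth hormone receptor Ghr was 1.53-fold lower (adjusted p = 0.00921). The prolactin receptor gene Prlr had 7.28 to 8.32 in Krt19-high and 7.37 to 9.48 in Krt19-low nodules, so the classes overlapped. Its difference was -0.80 ± 0.21 SE in the fit without nodule 8, whose own value (8.40) lay inside the Krt19-low range. A shift of the whole pattern toward that of females was not tested. P450 and urinary protein genes have close relatives whose transcripts a probe may share, and for Cyp2c7 the probe used fell by 1.77, another probe by 0.22 and their mean by 0.998.

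Sugar and amino acid genes followed the same direction. G6pc1, which releases glucose from the liver, had 9.49, 11.10 and 12.64 in Krt19-high, 12.18, 13.09 and 13.69 in Krt19-low nodules and 12.29, 13.24 and 14.13 in controls (4.05-fold lower, -2.02 ± 0.29 SE, adjusted p = 1.77e-05). Only nodule 17 among the Krt19-high ones reached into the Krt19-low range. Pck1, the other key gene of glucose formation, was 2.58-fold lower (adjusted p = 2.78e-05), while the glycolytic genes Pfkp (log2 difference 0.85, and 1.45 after neqc) and Aldoa (1.75-fold) were higher. In glucose metabolism as a whole 10 of 19 genes were called lower and 4 higher, and in both runs 6 lower and 2 higher. The shares of all features were 13.9% lower and 15.7% higher, and 3.88% and 4.55% in both runs. Gnmt, a methyltransferase that uses S-adenosylmethionine, was 2.62-fold lower with no overlap (-1.39 ± 0.21 SE, adjusted p = 3.67e-05), and the serine dehydratase Sds 3.03-fold lower (adjusted p = 0.000965). Cps1, the entry enzyme of the urea cycle, did not pass (-0.36 ± 0.23 SE, adjusted p = 0.263).

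Zonal genes of both ends of the liver lobule were lower. Of 12 perivenous genes 9 were called lower and 1 higher, and of 14 periportal genes 9 lower and 0 higher, against 13.9% and 15.7% of all features. In both runs 3 and 4 were called lower and 0 higher, against 3.88% and 4.55% of all features. The P450 Cyp1a2 was 3.70-fold lower with no overlap (-1.89 ± 0.26 SE, adjusted p = 1.13e-05), with 8.79, 10.16 and 11.32 in Krt19-high and 11.34, 11.85 and 13.17 in Krt19-low nodules. The aminotransferase Oat was 3.55-fold lower (adjusted p = 2.3e-05). The ammonium carrier Rhbg was called 1.36-fold higher (adjusted p = 0.0364), a call lost in 11 alternatives. Among transcription factors the largest drops were those of Onecut1 (2.37-fold, adjusted p = 6.5e-05) and Creb3l3 (2.30-fold, adjusted p = 9.65e-06). Hnf4a differed by -0.26 ± 0.09 SE (adjusted p = 0.0317).

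Further drops came from single genes that head the lower side. Hsd3b5, a steroid dehydrogenase, was 3.64-fold lower with no overlap (-1.86 ± 0.22 SE, adjusted p = 3.52e-06), and the transporter gene Ust5r 3.42-fold, also with none. Cyp3a23-3a1 was 4.45-fold lower, and its other probe differed by -1.95. The urinary protein gene Mup4l3 was 5.41-fold lower (-2.44 ± 0.44 SE), Stac3 3.87-fold, the fibrinogen-like hepatokine Fgl1 3.26-fold and the aldo-keto reductase Akr1c3 3.06-fold. Secreted proteins of hepatocytes gave 13 of 30 lower and 2 higher, and 8 lower and 0 higher in both runs; apolipoproteins Apoc2 (3.12-fold) and Apoa5 (2.87-fold) were lower with no overlap, while the iron hormone Hamp was 1.32-fold higher (adjusted p = 0.0161). Lcn2 was called higher too, but was detected in 3 of 10 Krt19-high and 0 of 10 Krt19-low nodules, and no fold is given. Complement C6 (2.69-fold) and the lectin Mbl2 (2.40-fold) were lower with no overlap. In cholesterol synthesis 9 of 16 genes were called lower and 1 higher, but none of them lower in the first run, against 11 in the second. The counts of secreted proteins and cholesterol synthesis stand beside 13.9% lower and 15.7% higher of all features, and 3.88% and 4.55% in both runs. Tm7sf2 fell by 0.62 (adjusted p = 0.0125) on the probe used and by 0.18 on its other probe, Nsdhl was 1.44-fold lower and Dhcr7 1.44-fold higher. Within fatty acid oxidation the thiolase Acaa2 went against its list, 1.63-fold higher with no overlap (adjusted p = 4.42e-06), while Cyp4a3 was 3.23-fold lower.

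Cell cycle genes shifted by small amounts. Of 39 measured, 20 were called higher and 1 lower with run as block, with a median of 0.19, against 15.7% and 13.9% of all features. In both runs 3 were called higher and 1 lower, near the shares of all features (4.55% and 3.88%). The tubulin-binding Stmn1 was 1.86-fold higher (0.89 ± 0.15 SE, adjusted p = 0.00013), with 9.04, 9.74 and 10.26 in Krt19-high, 8.13, 8.75 and 9.69 in Krt19-low nodules and 7.65, 8.27 and 8.78 in controls. Cyclin B2 (Ccnb2) was 1.74-fold higher (0.80 ± 0.25 SE, adjusted p = 0.0168), with classes that overlapped, while Cks1b, a subunit of cyclin-dependent kinases, was 1.51-fold lower (adjusted p = 2.04e-05). Targets of p53 gave 10 of 15 higher and 1 lower, and 3 higher and 0 lower in both runs, against the same shares. The stress cytokine Gdf15 was higher with no overlap (1.53 ± 0.19 SE, adjusted p = 4.07e-06, and 2.37 after neqc), with 9.09, 9.40 and 10.43 in Krt19-high and 7.10, 8.01 and 8.85 in Krt19-low nodules, which lay around the controls (7.50 to 8.34). Ccng1 was 1.75-fold higher and Sesn1 1.32-fold lower.

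Signals of the TGF-beta and YAP lists went both ways, with 8 of 19 called higher and 4 lower, and 4 and 1 in both runs. Ltbp2 (log2 difference 1.11, and 2.08 after neqc), the ligand Tgfb2 (log2 difference 0.99, and 2.12 after neqc) and Ccn2 (1.93-fold) were higher, and Tgfbi, a matrix protein named for its induction by TGF-beta, was 1.75-fold lower (adjusted p = 1.05e-05). The growth factor Ereg was 1.20-fold lower at a low level (adjusted p = 0.0081). Adhesion and junction genes gave 4 higher and 4 lower of 20, not far from the 15.7% and 13.9% of all features, and 1 higher and 2 lower in both runs. Among them Vcam1 was 1.47-fold higher, and the gap junction gene Gjb1 of hepatocytes 1.97-fold lower (adjusted p = 1.87e-05). Cdh13 was called higher, with no fold given because it was detected in 9 of 10 Krt19-high and 1 of 10 Krt19-low nodules.

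Markers of other cells moved with the classes in part, where 15.7% of all features were called higher and 13.9% lower, and 4.55% and 3.88% in both runs. Stroma and matrix genes gave 20 of 29 higher and 2 lower, with 5 higher and 1 lower in both runs, and their summed intensity ran from 40160 to 64103 in Krt19-high, from 34156 to 51048 in Krt19-low nodules and from 30140 to 44117 in controls. The collagen gene Col1a2 was 2.19-fold higher (1.13 ± 0.15 SE, adjusted p = 8.45e-06) and the matrix Gla protein Mgp 3.06-fold, while Col18a1 (1.34-fold, no overlap) and the fibronectin Fn1 (1.23-fold) were lower. Lum, a defining stromal gene, was detected in 0 of 10 Krt19-high and 1 of 10 Krt19-low nodules. Macrophage genes gave 11 of 16 higher and 2 lower, but 2 higher and 0 lower in both runs, with summed intensities of 26539 to 41456 in Krt19-high, 19617 to 31037 in Krt19-low nodules and 22365 to 38040 in controls. Fcer1g (1.75-fold) and C1qb (1.68-fold) were higher, and the scavenger receptor Marco (1.82-fold) and the endotoxin co-receptor Cd14 (1.52-fold) lower.

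Endothelial and blood signals did not rise with the class. Of 14 endothelial genes 0 were called higher and 3 lower by limma, against 15.7% and 13.9% of all features. In both runs 0 were called in either direction. The lower ones included Aqp1 (1.32-fold) and Fcgr2b (1.21-fold). Summed endothelial intensity ran from 5435 to 6710 in Krt19-high and from 5583 to 7432 in Krt19-low nodules. Lymphocyte genes gave 6 of 19 higher and 0 lower in the fit with the block and 0 in both runs, with Nkg7 (1.38-fold) and Cd48 (1.37-fold) the largest. Their sums were 4804 to 6321 in Krt19-high and 4282 to 5611 in Krt19-low nodules. Blood genes gave 5 of 10 lower and 1 higher, and 1 lower and 0 higher in both runs, with log2 differences of -0.83 for the globins Hbb and Hbb-b1 and of 0.31 for Ahsp, which stabilises alpha globin. Summed blood intensity was 8672 to 20880 in Krt19-high, 10908 to 28217 in Krt19-low nodules and 33008 to 94669 in controls. The part of these other cells in the gene lists above was not tested.

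The SD was larger in the Krt19-low class for 14 of the 17 foci markers, but also for 75.7% of all features. The SD of Akr1b8 was 0.37 in Krt19-high and 1.56 in Krt19-low nodules, that of Abcb1b 0.25 in Krt19-high and 1.52 in Krt19-low, and that of Cyp2c12 0.31 in Krt19-high and 1.42 in Krt19-low nodules. Nodule 23, the Krt19-low nodule nearest the cut, held the highest value of that class for Nefl (8.93), Ctse (9.75), Defb1 (12.62), Akr1b8 (12.57) and Abcb1b (11.80). Nodules 8 and 22 were at the other end for Akr1b8 (7.64 and 8.47) and Defb1 (7.22 and 7.27). Nefl, Pla2g7 and G6pc1 had the opposite order, G6pc1 with an SD of 0.93 in Krt19-high and 0.41 in Krt19-low nodules. The mean of the Krt19-low class lay between those of the Krt19-high class and control for 526 of the 613 features higher in both runs (85.8%), for 414 of the 523 lower in both (79.2%) and for 53% of all features. Sds was an exception, with its Krt19-low median of 13.52 above both the Krt19-high median of 12.08 and the control median of 11.73.

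The genes whose pattern across nodules was most like that of Krt19 were found by the mean of the within-run Pearson correlations, over 10 nodules in each run. They were Afg3l2, a mitochondrial protease (r of 0.971 and 0.965), Tspan3, a tetraspanin (0.945 and 0.984), and Ctse (0.954 and 0.974). The strongest opposite pattern was that of the hydrolase gene Bphl (-0.926 and -0.991). Nefl had 0.916 and 0.975. The nodules of a run share the cut into classes, so these are descriptions without a test. Tspan3 was 3.51-fold higher in Krt19-high nodules with no overlap, and Afg3l2 2.02-fold.

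The same features were then read in aHCC against control, 2 groups that share no array with the nodules. Limma called 2252 features higher in aHCC (16.7%) and 2054 lower (15.2%), 31.9% in all. Of the 613 features higher in both runs of nodules, 467 were called higher in aHCC (76.2%) and 1 lower, and of the 523 lower in both, 440 were called lower (84.1%) and 1 higher. Seen from aHCC, these were 20.7% of its higher and 21.4% of its lower calls. Over all features the 2 differences had a Pearson r of 0.776 (Spearman rho 0.64), again a description across genes. Akr1b8 differed by 5.67 and Gpx2 by 4.62 between aHCC and control, more than between the nodule classes, and Obp3 by -5.63. Afp, lower in Krt19-high nodules, differed by -0.11 between aHCC and control (adjusted p = 0.865), but by -0.51 (adjusted p = 0.0393) without aHCC 36, which had 13.94 against 9.00 to 10.90 in the other 8. Defb1 was at least 38-fold higher in aHCC (means of 12.69 in aHCC and 7.15 in control, adjusted p = 8.98e-11). With controls 25 to 27 as the only controls the aHCC calls fell to 550 higher and 525 lower, and Ctse (adjusted p = 0.252) and Nefl (adjusted p = 0.0835) no longer passed. After neqc the aHCC differences were larger, at 4.94 for Krt19, 3.05 for Ctse, 7.25 for Akr1b8, 6.16 for Gpx2 and -7.17 for Obp3.

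**Figure D5:**
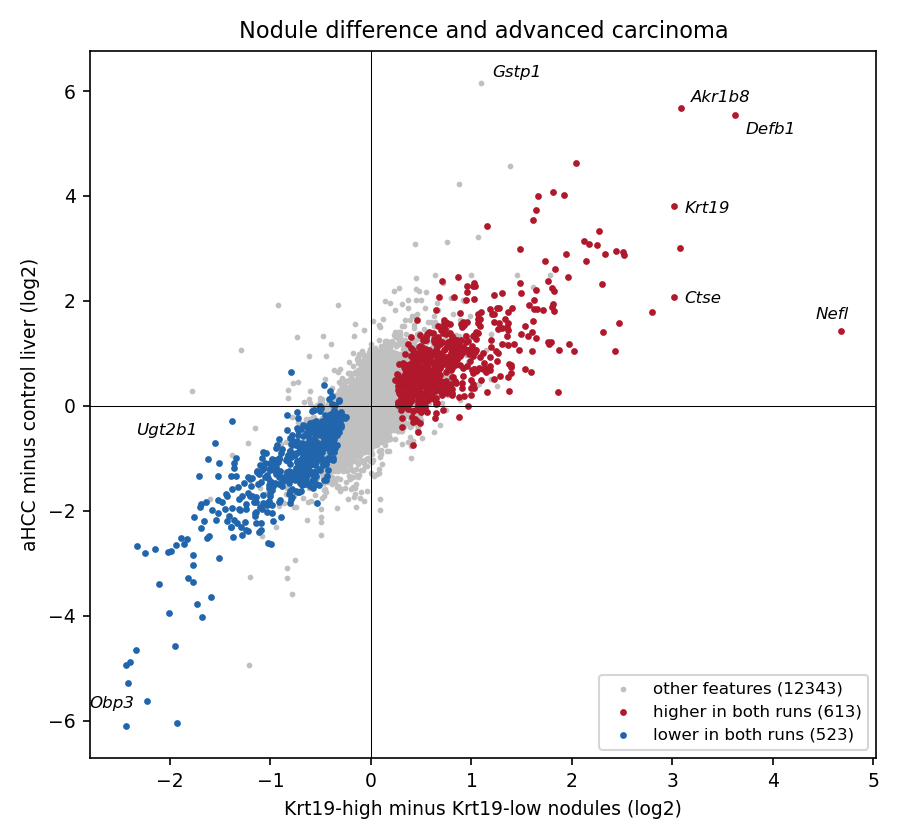
Krt19-high minus Krt19-low nodule difference with run as block (horizontal axis, log2) and aHCC minus control difference (vertical axis, log2) of each feature; red and blue points are the features called higher (613) or lower (523) in both runs of nodules. Most red points lie above the horizontal line and most blue points below it, with Nefl far to the right at 4.67 and Gstp1 at the top at 6.15.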

How the data were processed

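The intensity of each probe and its detection p-value were deposited by the authors for 48 single-colour Illumina rat arrays; the submitters' processing notes name BeadStudio 3.0.19.0. The deposited intensity values had medians of 159.0 to 159.6 on every array and a minimum of 96.8, so they were taken as normalized between arrays and not background-subtracted. They were converted to log2 with no further step; uncorrected background shrinks the differences of dim genes, and the top of the scale, 15.54, those of bright ones. The planned normexp correction for raw intensities was therefore kept as an alternative. Of 22523 probes, 13679 with a detection p-value under 0.05 in at least 4 arrays were kept. Of all probes 13793 had 1 gene symbol in the platform annotation, 0 had several and 8730 none. The brightest probe stood for a gene, which gave 9273 genes and 4206 unnamed probes.

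Nodules were fitted with limma 3.58.1 (R 4.3.3, Python 3.11.15) with run as block, and within each run; aHCC and control arrays were fitted on their own. P-values were adjusted by Benjamini-Hochberg over all 13479 features, and errors are SE of the fit. Where a whole group lacked detection, a bound replaces the fold, taken against the higher of each array's lowest detected intensity and the probe's own. Members, gene lists, tests and alternatives were chosen with earlier results of these data known. Genes named were the 12 largest in each direction called in both runs, the 2 largest called members of each list in each direction, some fixed lesion and pathway genes, the 3 closest to Krt19, and further list members given as examples chosen after their values were seen. Tested on simulated data, the block fit recovered 100 of 100 genes changed by 1 and 100 of 100 changed by 2 on the log2 scale among 13479 features, with 8 false calls. The simulation drew genes and arrays independently, with the same spread in both classes. It therefore gives no error rate for these nodules. The number of arrays limits the precision.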

Additional observations from a re-analysis of the deposited data

Results flagged for a closer look

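In 14 cases among 196 sets of 10 values (98 named genes in 2 classes) 1 nodule lay far from the other 9 by Dixon's criterion, which chance alone meets in about 1 of 20 sets. In Krt19-low nodule 8, Gstp1 was 9.84 (others 14.19 to 15.48), Abcc3 8.42 (others 11.25 to 12.08) and Cyp1a2 13.17 (others 11.34 to 12.12), all log2 intensities. In Krt19-low nodule 23, Pla2g7 was 9.12 (others 7.16 to 7.74), Tgfb2 8.28 (others 7.20 to 7.64), Taldo1 14.28 (others 13.04 to 13.67) and Cks1b 9.42 (others 9.94 to 10.28). Hamp was 13.78 in Krt19-low nodule 6, below 14.39 to 15.09 in the others, and Ereg 7.15 in Krt19-low nodule 10, below 7.61 to 7.87.

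Among Krt19-high nodules, nodule 2 had Nfe2l2 at 12.44 (others 11.51 to 11.92) and Col18a1 at 10.75 (others 11.14 to 11.47). Nodule 1 had Nefm at 9.52 (others 7.56 to 8.39), nodule 15 had Dpp3 at 11.35 (others 11.09 to 11.22), and nodule 19 had Gstp1 at 14.79 (others 15.22 to 15.54).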

How the results depend on the processing

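The counts of called features stayed within 1.5 times of those reported, for the class comparisons and aHCC alike, with neqc, with no filter or a stricter filter on dim probes, with a mean-variance trend and with array weights; for the class comparison with run as block the same held without the block and with the mean of a gene's probes. Exceptions were the model of all 48 arrays, which called 1370 features higher and 1214 lower between the classes, and the grouping as titled, which called 0 and 0 by limma, since the titles exchange the classes of the second run. With controls 25 to 27 alone, aHCC gave 550 higher and 525 lower. Leaving out 1 nodule at a time gave 1920 to 2196 higher and 1663 to 1966 lower with run as block, 444 to 790 and 392 to 661 in the first run, 1354 to 2059 and 1297 to 2008 in the second, 397 to 652 and 361 to 547 in both, and 0 to 1 in each direction for the difference between runs. Leaving out 1 array of aHCC or control gave 2081 to 2807 higher and 1876 to 2727 lower, and the difference in detected probes stayed between 714.3 and 857.9 (830.3 at a detection p-value under 0.01). No called difference of a named gene reversed; that of Keap1, which was not called, was -0.03 with array weights. Gene by gene, values for the grouping as titled are not given, because it sets the classes in opposite directions in the first and second run. With run as block, named genes lost their call in 96 gene-by-setting combinations and gained it in 4, most often Akr1d1 (16 settings), Gpc3 (15), Acot1 (14), Rhbg (11) and Hnf4a (9); Akr7a3 lost it without nodule 1, 2, 5 or 22, and Ahsp, Cd14, Cd48, Dpp3, Fcgr2b, Fn1, Hamp, Idh2, Lcn2, Nkg7, Nsdhl, Tff3, Tm7sf2 and Vil1 in the model of all arrays. Gstp1 passed without nodule 8, in the model of all arrays (1.10, adjusted p = 0.0183) and with the mean of its probes (1.29, adjusted p = 0.0331). No paired analysis was possible because the labels do not tie the cut regions to animals. Signal near background limits dim genes, among them Ereg, Lcn2, Krt7 and Cdh13 and those whose neqc values are given beside them (Nefl, at 6.12, and Ctse, at 3.87, also moved), and the upper end of the scale limits Gstp1, Gclc and Alb.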
